A study of Mus musculus with 20 samples.

Results

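Interferon-stimulated genes are the genes that cells switch on when interferon binds its receptors. Type I and type III interferons act through the kinases Jak1 and Tyk2 on a complex that includes Stat2 and Irf9 and binds a promoter element built from repeats of GAAA. Interferon gamma acts through Jak1 and Jak2, and its target promoters often hold the spaced palindrome TTCNNNGAA. The products block viral entry, translation and assembly, destroy foreign RNA, tag proteins with the ubiquitin-like modifier Isg15, and raise the presentation of peptides on class I major histocompatibility molecules. In the kidney, tubular and glomerular cells as well as resident and infiltrating leukocytes are known to respond to interferon.

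The 36 genes described here were taken by name from a list of mouse interferon-stimulated genes, by a rule that uses no threshold on their values. All 36 were found among the 55471 gene entries of the count tables. They fall into 6 groups by role: 13 antiviral effectors (Ifit1, Ifit2, Ifit3, Rsad2, Cmpk2, Bst2, Xaf1, Ifi27, Ifi44, Rtp4, Parp14, Mx1 and Mx2), 5 oligoadenylate synthetases and related proteins (Oas1a, Oas2, Oas3, Oasl1 and Oasl2), 4 genes of ISG15 and ubiquitin conjugation (Isg15, Usp18, Herc6 and Trim25), 5 genes for an RNA sensor and transcription factors (Ifih1, Irf1, Irf7, Irf9 and Stat2), 4 guanylate-binding proteins (Gbp2, Gbp3, Gbp5 and Gbp7) and 5 genes of class I antigen processing (Psmb8, Psmb9, Tap1, B2m and Nlrc5). All 36 passed the filter on low counts in every comparison.

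The genes were measured by RNA-seq of whole kidneys from female mice aged 2 months, in 20 libraries of 2 experiments that asked what telomerase reverse transcriptase (TERT) does during renewal of injured glomeruli. In the injury experiment, on a BALB/c background, mice lacking TERT (TERT KO/KO, backcrossed for 10 generations) and TERT WT/WT littermates were injected once in the tail vein with saline or with 12 mg/kg adriamycin (ADR), a podocyte toxin also called doxorubicin, and kidneys were taken 18 days later. TERT WT/WT is represented by 4 saline and 3 ADR libraries, and TERT KO/KO by 3 of each kind. In the induction experiment, on a mixed background, 3 i-TERTci mice carried actin-rtTA and tetOp-TERTci, each heterozygous, so that doxycycline switches on a catalytically inactive TERT wherever the actin promoter is active, and 4 control mice carried actin-rtTA alone. Both groups drank doxycycline at 2 mg/ml for 15 days and were sampled after 8 days without it (reversal day 8, R8). The labels do not tie libraries of different groups to each other.

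Total counts per library lay between 39323498 and 48399322. Counts of Tert after saline were 122 to 187 with intact TERT and 51 to 132 in the knockout. After ADR they were 164 to 379 with intact TERT and 105 to 210 in the 2 knockout libraries used below. Those ranges overlapped, so the counts do not separate the genotypes after ADR. At R8 Tert had 87 to 164 counts in actin-rtTA+ and 230 to 1086 in i-TERTci. These are counts over the whole gene, so reads from a part that the knockout allele keeps cannot be separated from the rest. One library, labelled as replicate 2 of TERT KO/KO ADR, went against its label of kidney: Alb, the main plasma protein made by hepatocytes, took 26.1% of its counts, Tert had 0 counts there, and 13 kidney epithelial markers summed to 145 CPM (counts per 1000000 counts of the library), against 7495 to 18468.2 in the other 19 libraries. It was left out of the comparisons, so TERT KO/KO ADR rests on 2 libraries, and its values are printed apart. Its CPM values were scaled by a normalisation factor of 0.3961 where the others lay between 0.866 and 1.236, so they are not on a like footing with the rest. CPM values below are after TMM scaling, a correction of library size for composition, and fold changes are on the log2 scale.

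The members are spread over 14 chromosomes, and 19 of them lie in 7 clusters whose members are less than 1 Mb apart (GENCODE M21, mm10). Gbp5, Gbp7, Gbp3 and Gbp2 lie in that order on chromosome 3 between 142493978 and 142638008, and Ifit2, Ifit3 and Ifit1 on chromosome 19 between 34550694 and 34650009. Psmb9, Tap1 and Psmb8 form a cluster on chromosome 17 between 34181987 and 34201454. The Oas, Gbp, Ifit and Mx genes have near relatives in sequence, so counts of single members are less certain than those of single-copy genes. Psmb9 and Tap1 overlap by 212 bases on opposite strands, B2m lies within the annotated span of Patl2 on the other strand, and Mx2 is annotated as a polymorphic pseudogene. Whether the counting used strand is not given in the sources used here.

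Promoter sequences, 250 bases before to 50 after the annotated start (RefSeq, GRCm38.p6), were at hand for 28 of the 36 members. GAAANNGAAA, searched on both strands, was in 14 of these 28 and in 3.99% of the 27025 genes of that table. TTCNNNGAA, which reads the same on both strands, was in 7 of the 28 and in 9.55% of all genes. Both motifs were in 4 members and neither was in 11. The stretches below run from 140 to 21 bases before the start, 5′ to 3′ on the strand of the gene, with motif matches in capitals. Isg15, Ifit1 and B2m are shown because they carry GAAANNGAAA and belong to different roles, Gbp7 because it carries both motifs, Irf1 because it carries only TTCNNNGAA, and Rsad2 because it was the member that fell after ADR in TERT KO/KO.
Isg15, chr4:156200839-156200958, minus strand: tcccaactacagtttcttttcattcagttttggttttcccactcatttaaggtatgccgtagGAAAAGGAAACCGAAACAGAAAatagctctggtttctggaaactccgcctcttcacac
Ifit1, chr19:34640749-34640868, plus strand: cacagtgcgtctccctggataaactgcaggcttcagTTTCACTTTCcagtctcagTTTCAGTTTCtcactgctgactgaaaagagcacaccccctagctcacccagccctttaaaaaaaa
B2m, chr2:122147547-122147666, plus strand: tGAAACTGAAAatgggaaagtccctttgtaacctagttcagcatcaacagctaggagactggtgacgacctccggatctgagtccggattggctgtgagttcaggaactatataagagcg
Gbp7, chr3:142530196-142530315, plus strand: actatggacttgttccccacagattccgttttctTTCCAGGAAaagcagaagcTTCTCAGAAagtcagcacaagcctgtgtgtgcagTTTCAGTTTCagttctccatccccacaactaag
Irf1, chr11:53769874-53769993, plus strand: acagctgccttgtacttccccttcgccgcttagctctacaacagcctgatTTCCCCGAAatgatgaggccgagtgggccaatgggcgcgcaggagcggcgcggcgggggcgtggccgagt
Rsad2, chr12:26456473-26456592, minus strand: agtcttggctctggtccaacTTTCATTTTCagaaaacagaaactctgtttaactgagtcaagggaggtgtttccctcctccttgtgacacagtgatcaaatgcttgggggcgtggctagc

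Isg15 holds 3 overlapping matches to GAAANNGAAA, whose leftmost bases are 78, 72 and 66 bases before the start. Ifit1 holds 2 matches on the opposite strand, read here as TTTCNNTTTC. These are matches of letters, not measured binding.

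ADR raised most of the interferon-stimulated genes in kidneys with intact TERT. In TERT WT/WT mice, 25 of the 36 members rose and 0 fell at an adjusted p under 0.05 (edgeR quasi-likelihood test, Benjamini-Hochberg over 19023 genes), which is 69.4% of the members. Over all genes tested, 27.1% were called, 15.2% higher and 12.0% lower. The median log2 fold change of the members was 1.23, against 0.01 over all genes, and 35 of 36 were positive. For 28 members every ADR library lay above every saline library, as it did for 17.7% of all genes, and for 0 members every ADR library lay below, as for 15.8% of all genes.

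**Figure D1:**
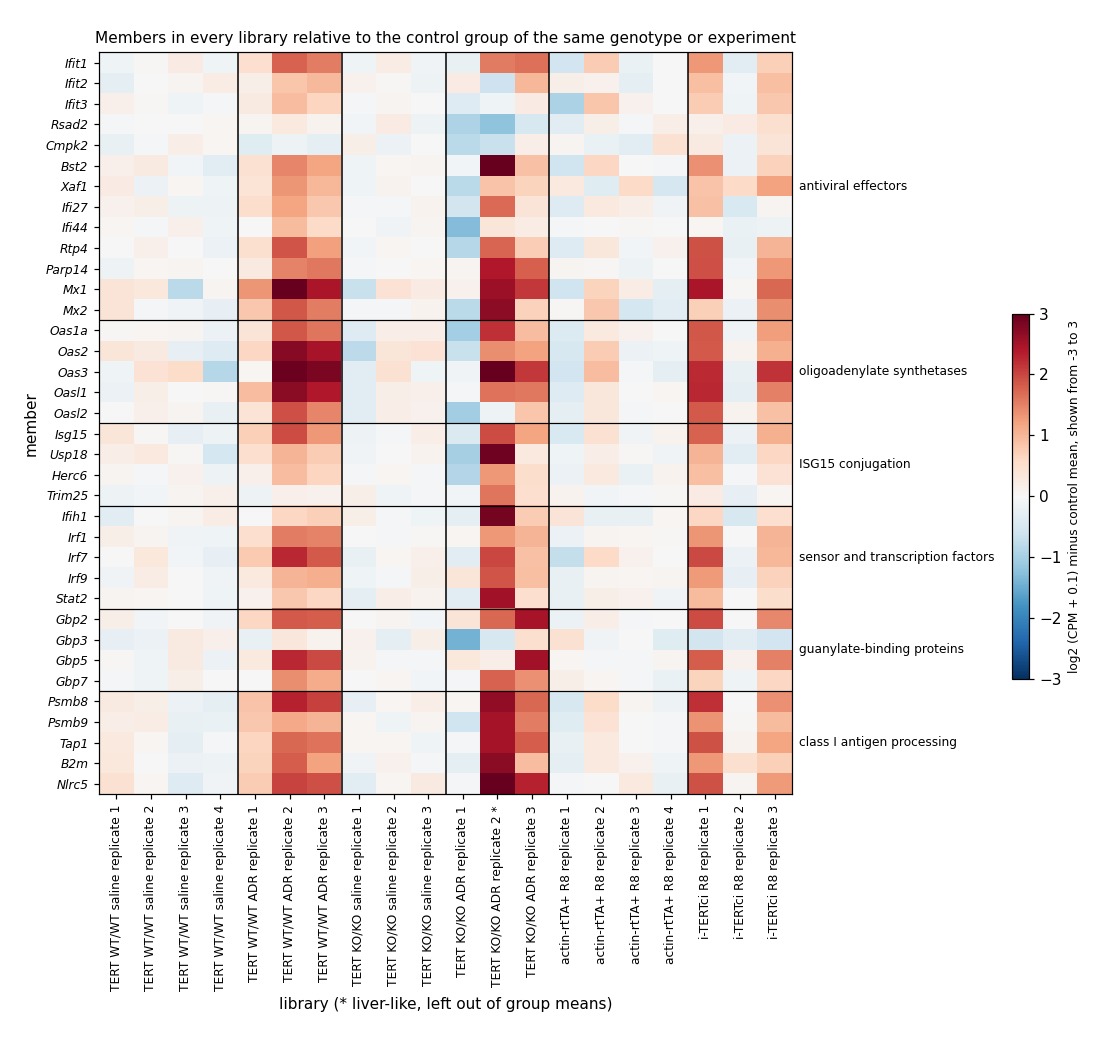
Heat map of the 36 members (vertical axis, grouped by role) in the 20 libraries (horizontal axis, grouped by genotype and treatment), coloured by the log2 ratio of CPM to the mean of the control group of the same experiment and genotype. TERT WT/WT ADR replicates 2 and 3 are raised over nearly the whole list, with median ratios of 1.51 and 1.22, while TERT KO/KO ADR replicate 1 at -0.30 and i-TERTci replicate 2 at -0.11 are not.

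The 3 injured TERT WT/WT kidneys did not respond to the same degree. The median log2 ratio of the members to the saline mean was 0.44 in replicate 1, 1.51 in replicate 2 and 1.22 in replicate 3. Replicate 1 was still above all 4 saline libraries for 28 members, replicate 2 for 34 and replicate 3 for 33. The share over all genes was not counted for single libraries. Without replicate 2 the count of members called fell to 6 (9.06% of all genes called), without replicate 3 to 14 (15.0%), and without replicate 1 it was 32 (41.2%). The median fold change stayed positive, at 0.94, 1.07 and 1.52 in turn. With no filter on low counts 14 members and 13.5% of all genes were called, and with TERT KO/KO ADR replicate 2 kept in the fit 3 members, Irf1, Mx1 and Oasl1, and 4.82% of all genes.

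Among the 13 antiviral effectors 10 rose, with a median log2 fold change of 0.96. Mx1, a dynamin-like GTPase that traps viral nucleocapsids, was at 0.632, 0.59, 0.219 and 0.493 CPM in the saline libraries and at 1.29, 4.45 and 2.92 CPM after ADR. The groups did not overlap, and replicate 1 was the lowest of the injured kidneys. The log2 fold change of Mx1 was 2.57 ± 0.55 (SE, n = 4 and 3, edgeR adjusted p = 0.007), the highest of all members. Mx2, its paralog, went from 1.65, 1.22, 1.14 and 1.04 CPM to 2.25, 4.81 and 3.81 CPM, a log2 fold change of 1.51 ± 0.35 (adjusted p = 0.00932). Bst2, or tetherin, which holds budding virions on the cell surface, was at 15.9, 17.3, 13.5 and 11.3 CPM after saline and at 19.8, 39.5 and 32.4 CPM after ADR. Every ADR value of Mx2 and Bst2 was above every saline value, and Bst2 rose by 1.07 ± 0.25 (adjusted p = 0.0103). The other effectors that rose were Ifit1, Ifit2, Ifit3, Ifi27, Rtp4, Parp14 and Xaf1, between 0.64 for Ifit3 and 1.37 for Ifit1. Ifi44 (0.56), Rsad2 (0.16) and the nucleotide kinase Cmpk2 (-0.28) were not called.

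All 5 oligoadenylate synthetase genes rose, with the highest median of the 6 groups, 2.19. The synthetases sense double-stranded RNA and make short oligoadenylates that activate RNase L. Oasl1 was at 2.62, 3.39, 2.94 and 3.06 CPM after saline and at 5.77, 20.1 and 16.4 CPM after ADR. Its lowest injured kidney was above the highest saline kidney, and the log2 fold change was 2.23 ± 0.41 (adjusted p = 0.00357). Oas2 was at 3.97, 3.73, 2.57 and 2.31 CPM after saline and at 4.74, 20.9 and 17.6 CPM after ADR, so replicate 1 stood just above the saline range. Oas2 rose by 2.19 ± 0.52 (adjusted p = 0.0117). Oas3 was at 0.361, 0.59, 0.637 and 0.182 CPM after saline and at 0.431, 3.77 and 3.47 CPM after ADR. Here replicate 1 lay inside the saline range and the rise of 2.51 ± 0.70 (adjusted p = 0.0213) came from replicates 2 and 3. Oas1a and Oasl2 rose by 1.44 and 1.39.

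Of the genes of ISG15 conjugation, 1 of 4 rose. Isg15, the modifier itself, was at 3.36, 2.65, 2.17 and 2.33 CPM after saline and at 4.36, 10.4 and 6.58 CPM after ADR. The groups did not overlap and the log2 fold change was 1.43 ± 0.36 (adjusted p = 0.0137). Usp18, the protease that removes Isg15 from its targets and dampens the type I receptor, was at 3.14, 3.33, 2.79 and 1.87 CPM after saline and 3.88, 5.62 and 4.7 CPM after ADR. Herc6, the main ligase for Isg15 in mice, was at 5.08, 4.57, 5.27 and 4.25 CPM after saline and 5.34, 9.12 and 7.47 CPM after ADR. Neither group pair overlapped, yet the fold changes of 0.76 ± 0.29 for Usp18 (adjusted p = 0.066) and 0.60 ± 0.28 for Herc6 (adjusted p = 0.119) missed the threshold. Trim25, a ubiquitin ligase of the RNA-sensing pathway, had a fold change of 0.04.

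Of the 5 genes for the RNA sensor and transcription factors, 3 rose. Irf7, which drives transcription of type I interferon genes, was at 20.6, 25.5, 19.4 and 17.3 CPM after saline and at 35.2, 98.2 and 74.0 CPM after ADR. All 3 injured kidneys were above the saline range, with a log2 fold change of 1.74 ± 0.32 (adjusted p = 0.00409). Irf1, which is induced by interferon gamma, was at 20.8, 19.3, 16.9 and 16.6 CPM after saline and at 26.0, 53.4 and 51.4 CPM after ADR. The groups were apart, and Irf1 rose by 1.24 ± 0.25 (adjusted p = 0.00522). Irf9, the DNA-binding subunit of the complex with Stat2, went from 19.9, 24.8, 21.0 and 19.9 CPM to 26.0, 43.6 and 45.8 CPM. Its lowest ADR library was close to its highest saline library, and the rise was 0.84 ± 0.19 (adjusted p = 0.00883). Stat2 (0.54) and Ifih1, the sensor of long double-stranded RNA (0.47), were not called.

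Among the guanylate-binding proteins, large GTPases that attack membranes around intracellular pathogens, 2 of 4 rose. Gbp2 was at 11.4, 9.54, 10.3 and 9.34 CPM after saline and at 15.5, 36.6 and 35.9 CPM after ADR, a rise of 1.53 ± 0.40 (adjusted p = 0.0161). Gbp5 was at 3.07, 2.76, 3.62 and 2.67 CPM after saline and at 3.71, 14.8 and 12.3 CPM after ADR. Replicate 1 barely exceeded the highest saline library for Gbp5, which rose by 1.76 ± 0.48 (adjusted p = 0.0209). Gbp7, at 13.8, 13.1, 16.3 and 14.5 CPM after saline and 14.4, 37.8 and 31.3 CPM after ADR, overlapped through replicate 1 and just missed the threshold (0.95 ± 0.33, adjusted p = 0.05005). Gbp3, from the same chromosome 3 cluster, had a fold change of 0.07.

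Of the class I antigen processing genes 4 of 5 rose, with a median of 1.40. Psmb8, a catalytic subunit of the immunoproteasome, was at 13.4, 12.4, 9.72 and 9.18 CPM after saline and at 19.9, 55.4 and 46.1 CPM after ADR. The groups were well apart and the log2 fold change was 1.85 ± 0.38 (adjusted p = 0.00629). B2m, the light chain of every class I molecule, was at 417, 339, 294 and 300 CPM after saline and at 533, 1168.7 and 777 CPM after ADR. It was also the most abundant member per length, at 392 CPM per kb of exon in TERT WT/WT saline, followed by Ifi27 at 19.3, while Oas3 was the least abundant at 0.0626. B2m rose by 1.29 ± 0.29 (adjusted p = 0.00836). Tap1, part of the transporter that loads peptides, went from 14.6, 12.4, 9.55 and 11.2 CPM to 18.6, 39.4 and 36.6 CPM, with no overlap and a rise of 1.40 ± 0.36 (adjusted p = 0.0161). Nlrc5, the activator of class I gene transcription, rose by 1.68, and Psmb9 (0.99, adjusted p = 0.0562) was not called.

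**Figure D2:**
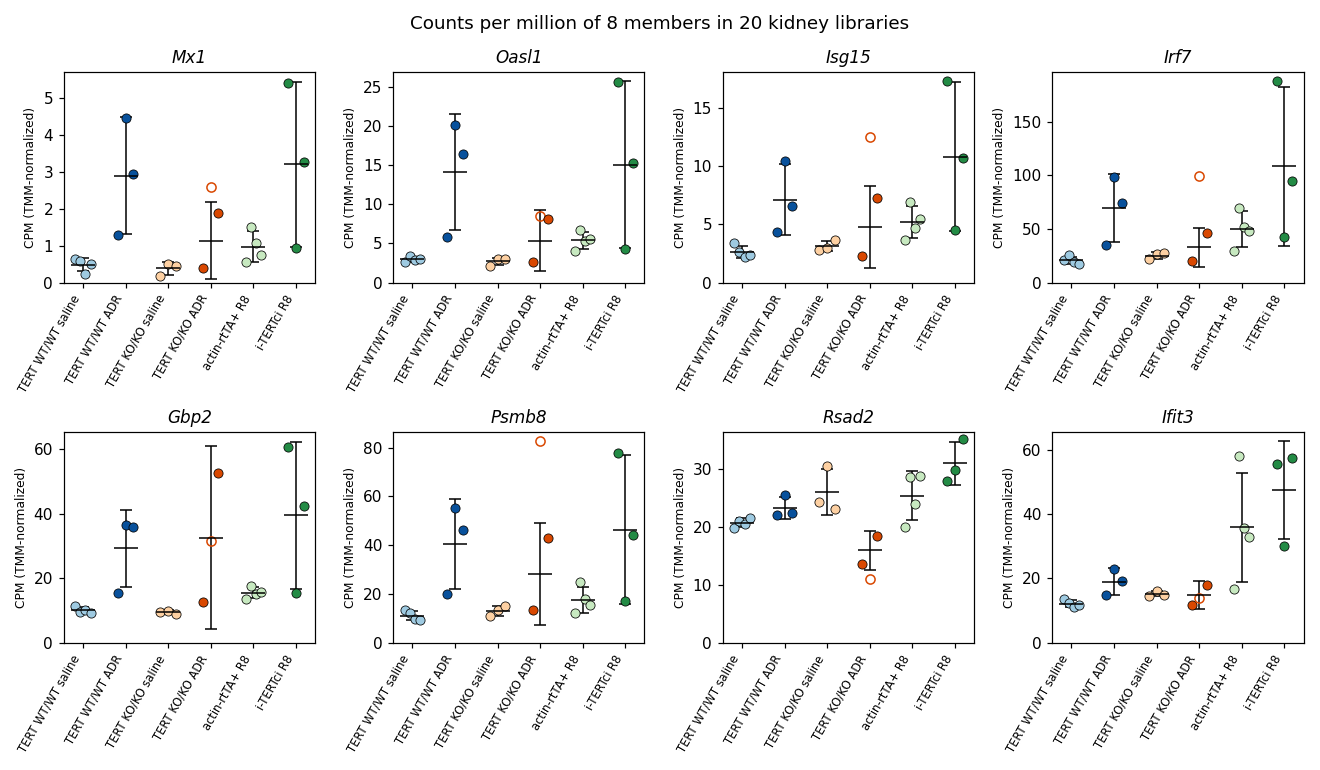
TMM-scaled CPM of Mx1, Oasl1, Isg15, Irf7, Gbp2, Psmb8, Rsad2 and Ifit3 (vertical axes, 1 panel a gene) in each library of the 6 groups (horizontal axes). Points are single libraries, horizontal lines are means and error bars SD without the open circle, which is the liver-like library TERT KO/KO ADR replicate 2. For Oasl1 the TERT WT/WT ADR libraries lie between 5.77 and 20.1 CPM, above saline at 2.62 to 3.39 CPM.

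Having GAAANNGAAA in the promoter window went with no higher share of calls among the members. In TERT WT/WT, 9 of the 14 members with the motif rose after ADR (median 1.18) and so did 9 of the 14 without it (median 0.97), and 7 of the 8 members with no promoter in the table (median 1.42). The difference between these subsets was not tested.

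Macrophage markers moved with the members, and several other marker lists shifted in the same libraries. In TERT WT/WT ADR replicates 1, 2 and 3, median log2 ratios to saline were 1.25, 2.78 and 2.57 for macrophage markers. They were 0.38, 1.05 and 1.05 for T and NK cell markers and -0.255, -1.55 and -1.77 for kidney epithelial markers. Replicate 1 was also nearest to saline in endothelial, dendritic and neutrophil markers, but not in B and plasma cell or hepatocyte markers. Of 12 macrophage markers, among them Adgre1, Csf1r and C1qa, 11 rose after ADR in TERT WT/WT, with a median of 2.39. Their summed level was 180 to 237 CPM after saline and 374, 898 and 790 CPM in ADR replicates 1, 2 and 3. None of the 12 was at 0 in any group. Of the T and NK cell markers 3 of 12 rose, as did 1 of 6 B and plasma cell, 2 of 6 dendritic, 1 of 5 neutrophil and 1 of 7 hepatocyte markers, while 2 of 6 endothelial markers fell. Of the kidney epithelial markers 6 of 13 fell, their summed level going from 13565.2 to 17249.7 CPM after saline to between 7495 and 12706.2 CPM after ADR. The part of these shifts in the members' rise was not tested, and in bulk tissue fewer cells of a type and less RNA per cell cannot be told apart.

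**Figure D3:**
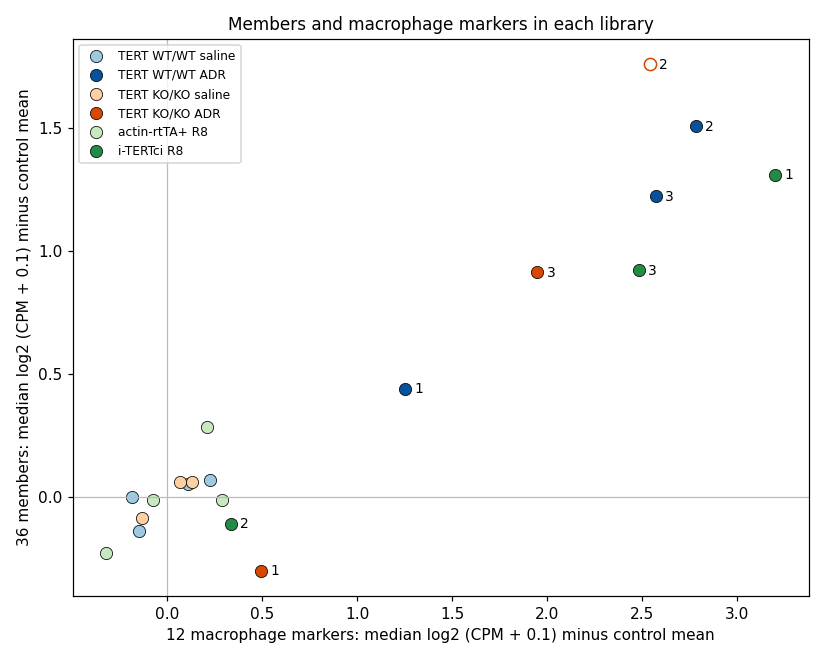
Median log2 ratio of the 36 members (vertical axis) against that of 12 macrophage markers (horizontal axis) in each library, both relative to the control mean of the same experiment and genotype, with replicate numbers beside the points. The libraries with the highest macrophage medians, i-TERTci replicate 1 at 3.20 and TERT WT/WT ADR replicates 2 and 3 at 2.78 and 2.57, have member medians of 1.31, 1.51 and 1.22.

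In mice without TERT, the same test called few members after ADR, a share close to that of all genes. The injured kidneys used there differed from each other in most members. The low count therefore does not show that ADR left most members unchanged. In TERT KO/KO, 1 of 36 members rose, Gbp2, and 1 fell, Rsad2, which is 5.56% of the members where 5.26% of all genes were called, 3.83% higher and 1.43% lower. The median fold change of the members was 0.46 and 30 of 36 were positive. An unadjusted p under 0.05 in edgeR was found for 11 of 36 members and for 4587 of the 19023 genes. For 6 members both ADR libraries were above all 3 saline libraries (Ifit2, Parp14, Irf1, Irf9, Gbp2 and Gbp5), which was so for 21.2% of all genes. DESeq2 called 6 members, Gbp2, Gbp5, Nlrc5, Parp14 and Tap1 higher and Rsad2 lower, and 11.5% of all genes.

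The members' medians in the 2 injured TERT KO/KO kidneys had opposite signs. In replicate 1 the members' median log2 ratio to saline was -0.30, with 6 members above, 10 within and 20 below the saline range. In replicate 3 it was 0.91, with 35 members above the range and Rsad2 alone below. For the counts in single libraries given here, the share over all genes was not counted. Against the 3 TERT WT/WT ADR libraries, replicate 3 was above their range for 9 members (Cmpk2, Parp14, Trim25, Gbp2, Gbp3, Gbp5, Psmb9, Tap1 and Nlrc5), below it for Rsad2 and within it for 26. Macrophage markers summed to 223 CPM in replicate 1 and 676 CPM in replicate 3, against 186 to 229 CPM after saline, and 4 of the 12 rose. Without replicate 1 the median fold change of the members was 0.92, and without replicate 3 it was -0.31, so its direction rests on single libraries. Each of these fits leaves 1 injured TERT KO/KO kidney. Without any one of the 3 saline libraries no member was called, with 0.932% to 1.14% of all genes. Without TERT WT/WT ADR replicate 1, which enters the shared estimate of spread, 8 members were called, with 17.9% of all genes. Without TERT WT/WT ADR replicate 2, or any one of the 4 TERT WT/WT saline libraries, 1 was called, Rsad2, with 3.12% to 5.19% of all genes.

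Gbp2 was at 9.52, 10.0 and 8.91 CPM in TERT KO/KO saline and at 12.5 and 52.8 CPM after ADR, with 31.5 CPM in the liver-like replicate 2. Both kidneys used were above the saline range, replicate 3 by far the more. The log2 fold change was 1.79 ± 0.47 (SE, n = 3 and 2, edgeR adjusted p = 0.0484). Rsad2, or viperin, which makes a chain-terminating nucleotide from CTP, was at 24.4, 30.5 and 23.2 CPM after saline and at 13.6 and 18.4 CPM after ADR. The liver-like replicate 2 was at 11.1 CPM, which is not on a like footing and has no bearing on the fall in kidney. Rsad2 was lower than saline in both kidneys used, and it fell by 0.69 ± 0.15 on the log2 scale (edgeR adjusted p = 0.0263). It was the only member with both ADR libraries below all saline libraries, which held for 21.1% of all genes. In TERT WT/WT, Rsad2 was at 19.8, 21.0, 20.6 and 21.6 CPM after saline and at 22.0, 25.5 and 22.5 CPM after ADR (0.16 ± 0.13, adjusted p = 0.353).

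Oasl1 and Irf7, named for their low unadjusted p in the comparison of the genotypes after ADR and chosen after their values were seen, show how far apart the injured kidneys without TERT lay. Oasl1 was at 2.12, 2.99 and 2.95 CPM in TERT KO/KO saline and at 2.61 and 8.13 CPM after ADR. Irf7 was at 21.5, 26.2 and 27.5 CPM in TERT KO/KO saline and at 20.1 and 45.8 CPM after ADR. For both genes replicate 1 was within or below the saline range and replicate 3 above it, yet under the highest TERT WT/WT ADR library.

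By role, the TERT KO/KO medians after ADR were 0.14 for the antiviral effectors, 0.48 for the oligoadenylate synthetases, 0.12 for ISG15 conjugation, 0.41 for the sensor and transcription factors, 1.32 for the guanylate-binding proteins and 1.13 for class I antigen processing. The TERT WT/WT medians for the same groups were 0.96, 2.19, 0.68, 0.84, 1.24 and 1.40. The TERT KO/KO median was lower for 5 of the 6 groups and higher for the guanylate-binding proteins, and differences between role groups were not tested. In replicate 3 the median ratios to saline were 1.92 for the guanylate-binding proteins, 1.72 for class I antigen processing, 1.20 for the oligoadenylate synthetases, 0.88 for the sensor and transcription factors, 0.68 for the antiviral effectors and 0.51 for ISG15 conjugation. In replicate 1 they were 0.14, -0.04, -0.66, -0.29, -0.56 and -0.66 for the same groups.

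**Figure D4:**
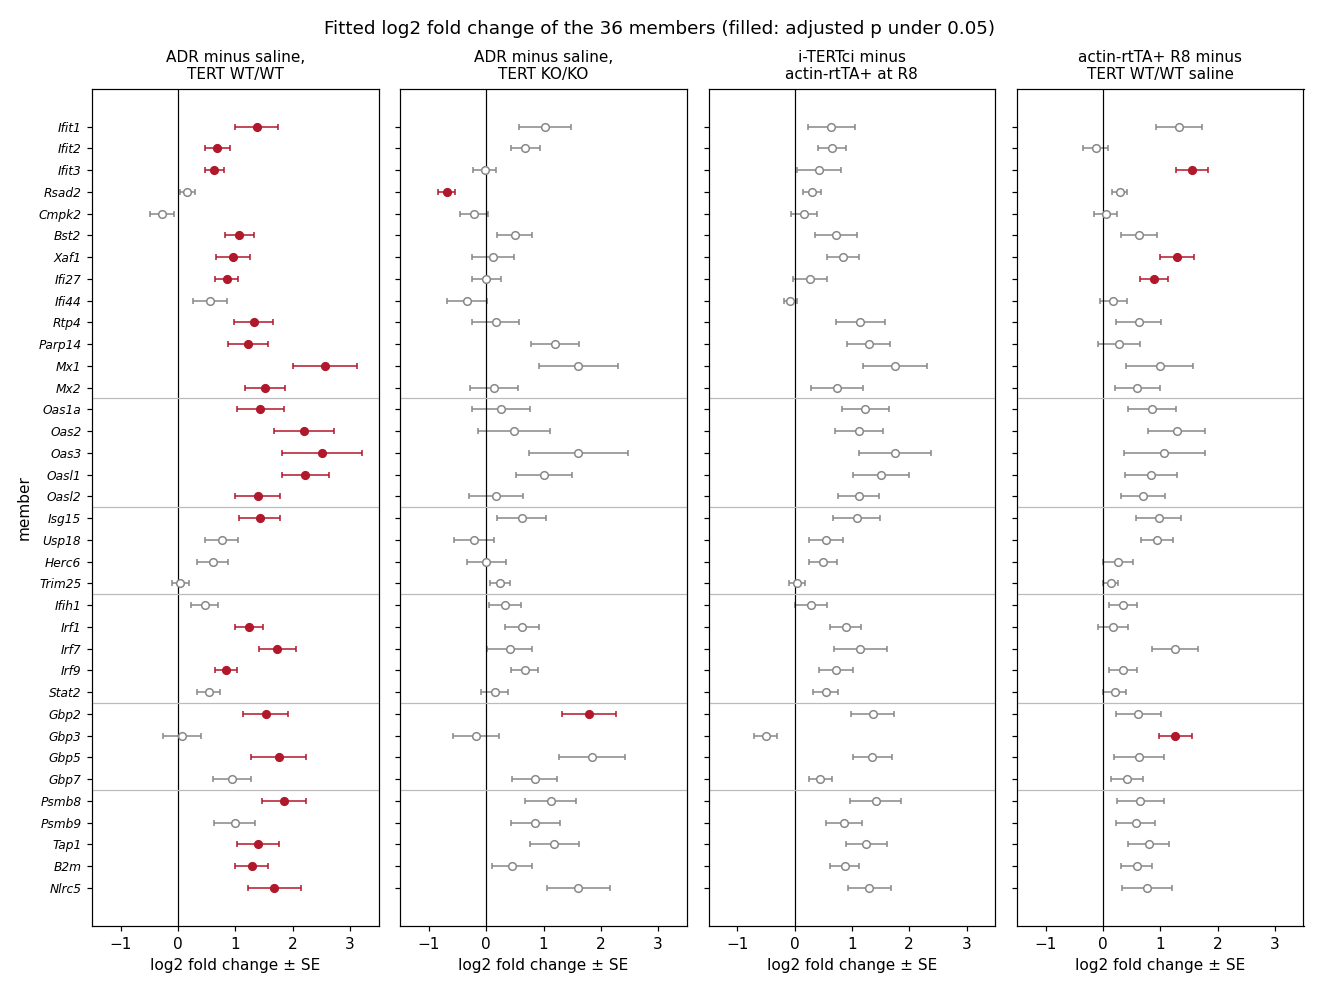
Log2 fold changes (horizontal axes) with SE of the 36 members (vertical axes, grouped by role) in 4 comparisons, ADR against saline for each genotype (TERT WT/WT, then TERT KO/KO), i-TERTci against actin-rtTA+, and actin-rtTA+ against TERT WT/WT saline. Filled red points passed an adjusted p of 0.05, which were 25, 2, 0 and 4 members in that order.

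Whether the genotypes differed was tested directly. Without injury, TERT KO/KO kidneys had 0 members called against TERT WT/WT by either edgeR or DESeq2 (0.00526% of all genes by edgeR, 0.116% by DESeq2). Unadjusted, 1 member and 1672 of the 19023 genes had p under 0.05 in edgeR, and the median difference was 0.07. After ADR, edgeR and DESeq2 each called 0 members, where DESeq2 called 0.725% of all genes. Over all genes edgeR called 0.0736%, of which 0.0473% of genes were higher in TERT KO/KO and 0.0263% lower. An unadjusted p under 0.05 in edgeR was found for 5 members and for 1458 of the 19023 genes. The median difference was -0.52 and 34 of 36 members were negative. That difference rested on 1 kidney: without TERT KO/KO ADR replicate 1 the median was -0.01, and without replicate 3 it was -1.43. Without TERT WT/WT ADR replicate 1, Irf7 and Oasl1 were called, both lower in TERT KO/KO, and 4.12% of all genes.

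The difference between the ADR effects in the 2 genotypes, an interaction term, was called for 0 members and 0 genes (0.0% of all genes) by edgeR. Unadjusted, 5 of 36 members and 2288 of the 19023 genes had p under 0.05 in edgeR. DESeq2 called 1 member and 0.725% of all genes. The median difference was -0.64 and 32 of 36 members were negative. The member DESeq2 called was Rsad2, with a difference of -0.86 ± 0.20 in edgeR (unadjusted p = 0.000925, adjusted p = 0.265). By role the median differences were -1.21 for the oligoadenylate synthetases, -0.84 for the antiviral effectors, -0.70 for ISG15 conjugation, -0.39 for the sensor and transcription factors, -0.21 for class I antigen processing and 0.00 for the guanylate-binding proteins. Without TERT KO/KO ADR replicate 1 the median over all members was -0.17, and without replicate 3 it was -1.54. Without TERT WT/WT ADR replicate 1, edgeR called Rsad2 as well, and 1.71% of all genes.

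After a pulse of inactive TERT, most members were higher in 2 of the 3 kidneys but none passed the test. Between i-TERTci and actin-rtTA+ at R8, 0 of 36 members and 1 of 17745 genes (0.00564%) were called by edgeR. An unadjusted p under 0.05 was found for 23 members and for 3972 of the 17745 genes, and 34 members were positive. DESeq2 called 13 members and 10.9% of all genes. The median log2 fold change was 0.86, against 0.02 over all genes. For Gbp5 and B2m every i-TERTci library lay above every control, as for 8.76% of all genes, and for 0 members below, as for 8.53% of all genes. Replicates 1 and 3 were above the control range for 31 and 29 members, with median ratios of 1.31 and 0.92. Replicate 2 was above it for 3, within it for 27 and below it for 6, with a median ratio of -0.11. For these single libraries the share of all genes outside the control range was not counted. Without replicate 2, 26 members were called, all higher, with a median of 1.05, and 23.6% of all genes were called. Macrophage markers summed to 1667.3, 239 and 855 CPM in replicates 1, 2 and 3, against 158 to 239 CPM in the controls. Their median fold change was 2.51. B and plasma cell markers summed to 25.7, 65.0 and 103 CPM in the same replicates, against 11.3 to 21.2 CPM in the controls. T and NK cell markers summed to 38.5, 14.3 and 33.0 CPM, against 8.8 to 12.9 CPM. Dendritic cell markers summed to 80.9, 19.1 and 55.3 CPM, against 13.2 to 16.6 CPM. Kidney epithelial markers summed to 8203.4, 14443.0 and 11616.0 CPM, against 14657.5 to 18468.2 CPM. The part of these markers in the members' values was not tested.

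The members given here were chosen after their values were seen: Gbp5 and B2m because their groups did not overlap, and Gbp2 because its p was the smallest after that of Gbp5. Gbp5 was at 4.85, 4.49, 4.48 and 4.94 CPM in actin-rtTA+ and at 16.7, 5.15 and 13.6 CPM in i-TERTci. Replicate 2 was just above the controls and the others far above, with a log2 fold change of 1.35 ± 0.34 (SE, n = 4 and 3, edgeR adjusted p = 0.0853). B2m was at 408, 615, 546 and 457 CPM in actin-rtTA+ and at 1237.9, 697 and 825 CPM in i-TERTci. The groups did not overlap, with a fold change of 0.88 ± 0.25 (adjusted p = 0.102). Gbp2 was at 13.7, 17.7, 15.2 and 15.7 CPM in actin-rtTA+ and at 60.9, 15.4 and 42.4 CPM in i-TERTci, so replicate 2 lay within the controls (1.37 ± 0.38, adjusted p = 0.097). By role the medians were 1.25 for class I antigen processing, 1.24 for the oligoadenylate synthetases, 0.90 for the guanylate-binding proteins, 0.72 for the sensor and transcription factors, 0.66 for the antiviral effectors and 0.52 for ISG15 conjugation. Gbp3 (-0.51) and Ifi44 (-0.08) had negative fold changes.

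The i-TERTci effect was set against the ADR effect in TERT WT/WT in a joint fit of both experiments. It was called as different for 0 members by edgeR and 0 by DESeq2 (0.00505% of all genes by edgeR, 0.303% by DESeq2). Unadjusted, 0 members and 1417 of 19783 genes had p under 0.05 in edgeR. The median difference was -0.33, and without i-TERTci replicate 2 it was 0.03. For Oasl1 the difference was -0.74 ± 0.68, and the SEs of the members ran from 0.20 for Rsad2 to 1.02 for Oas3. How closely this design measures a difference thus varies between members. The 2 experiments differ in strain, doxycycline, transgenes and time after the stimulus, which cannot be told apart here.

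The 2 sets of control kidneys differed in their interferon-stimulated genes as well. Between actin-rtTA+ at R8 and TERT WT/WT saline, 4 of 36 members were higher (11.1%) and 0 lower, where 6.78% of all genes were called, 3.59% higher and 3.19% lower. DESeq2 called 7 members and 9.19% of all genes. The median difference was 0.63, 35 of 36 were positive, and for 19 members all 4 actin-rtTA+ libraries were above all 4 saline libraries, as for 9.56% of all genes, while the reverse order held for 0 members and 8.52% of all genes. Ifit3, which binds foreign RNA together with Ifit1, was at 16.8, 58.2, 35.7 and 32.8 CPM in actin-rtTA+ against 13.5, 12.4, 11.2 and 11.6 CPM in saline. Gbp3 was at 149, 99.6, 108 and 83.6 CPM in actin-rtTA+ against 38.5, 39.9, 54.7 and 50.4 CPM in saline. Neither pair of groups overlapped, with differences of 1.55 ± 0.29 for Ifit3 (SE, n = 4 and 4, edgeR adjusted p = 0.00227) and 1.26 ± 0.29 for Gbp3 (adjusted p = 0.0107). Xaf1 (1.29) and Ifi27 (0.89) were the others. Without actin-rtTA+ replicate 3 the count was 2, with 4.64% of all genes called. Without i-TERTci replicate 1 or 2, which share the fit, it was 7, with 7.87% and 8.04% of all genes. Of the macrophage markers 0 of 12 were called here, with summed levels of 158 to 239 CPM and 180 to 237 CPM. Of the 6 B and plasma cell markers 1 was called and all were positive, and their summed level was 11.3 to 21.2 CPM in actin-rtTA+ against 2.66 to 5.03 CPM in saline, with no overlap. Of the T and NK cell and endothelial markers 1 each was called, both higher. The part of these markers in the members' values was not tested. Strain, doxycycline, the rtTA transgene, saline injection and the experiment itself are confounded in this comparison and cannot be told apart.

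The rest of the interferon pathway was read from a list of 50 further genes, of which 39 passed the filter on low counts. After ADR 20 of the 39 rose and 1 fell in TERT WT/WT, where 27.1% of all genes were called. In TERT KO/KO 2 of the 39 rose and 0 fell, where 3.83% of all genes were called higher and 1.43% lower. Whether 2 of 39 differs from that share was not tested. In i-TERTci 0 were called by edgeR and 25 had an unadjusted p under 0.05, as did 3972 of 17745 genes.

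The interferons themselves were at or near 0. Of 10 ligand genes none passed the filter, the highest count of any ligand in any library was 6, and 3 (Ifna1, Ifna5 and Ifne) had 0 counts in all 20 libraries. A count of 0 allows up to 3 counts, or 0.062 to 0.0763 CPM before TMM scaling depending on the library, and covers counting error only. Ifnb1 had 5 counts in TERT KO/KO ADR replicate 1, the library with the lowest member median, 1 in actin-rtTA+ replicate 3 and 0 elsewhere. Ifng had 6 counts in TERT KO/KO ADR replicate 3 and 0 in all 3 TERT WT/WT ADR libraries, and it was detected in 10 libraries in all. A difference in ligand expression was not detectable at this depth.

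Receptor genes rose for 4 of 6 in TERT WT/WT: Ifngr1 (1.38 ± 0.29, adjusted p = 0.00655), Ifngr2 (1.19 ± 0.27), Ifnlr1 (0.90 ± 0.16) and Ifnar2 (0.45 ± 0.12). Jak2, the kinase on the interferon gamma receptor, fell by 0.52 ± 0.18 on the log2 scale (adjusted p = 0.0474).

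Socs3, a feedback inhibitor of cytokine receptors that is also induced by interleukins, had the highest fold change of the pathway list. It was at 3.34, 4.04, 3.51 and 2.91 CPM in TERT WT/WT saline and at 13.9, 47.4 and 53.4 CPM after ADR, a rise of 3.47 ± 0.37 (adjusted p = 0.000712). In TERT KO/KO it was at 2.17, 3.9 and 3.56 CPM after saline and at 20.8 and 20.9 CPM after ADR, a rise of 2.71 ± 0.44 (adjusted p = 0.00782). Both injured TERT KO/KO kidneys were alike in Socs3, unlike in most members. In i-TERTci it was at 43.9, 5.36 and 36.9 CPM against 2.32, 2.86, 3.73 and 3.78 CPM in the controls, with all 3 above the control range and a fold change of 3.20 ± 0.60 (adjusted p = 0.0758). Socs1, the inhibitor more closely tied to interferon, was not called (0.78 in TERT WT/WT).

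Of the sensors and adaptors 6 of 13 rose in TERT WT/WT, among them Tmem173 (STING, the adaptor of cytosolic DNA sensing) by 1.96 ± 0.32, the kinase Ikbke by 1.67 ± 0.31 and Ddx58 (the RNA sensor RIG-I) by 0.84 ± 0.18. Tmem173 was at 5.9, 5.64 and 6.21 CPM in TERT KO/KO saline and at 9.67 and 23.3 CPM after ADR. Both injured kidneys were above saline, and it was the other pathway gene that rose in TERT KO/KO (1.49 ± 0.38, adjusted p = 0.0418). Trex1, a nuclease of the same pathway, was listed at 0 in all 20 libraries and overlaps Atrip on the same strand in the annotation. Among the other interferon regulatory factors Irf8, which is expressed in myeloid cells, rose by 0.71 ± 0.17 in TERT WT/WT.

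Of 8 further class I genes 7 rose after ADR in TERT WT/WT, with a median of 1.00. H2-K1, a class I heavy chain, was at 140, 134, 100 and 92.7 CPM after saline and at 200, 550 and 447 CPM after ADR. All 3 ADR libraries were above saline, with a rise of 1.77 ± 0.35 (adjusted p = 0.00534). H2-D1 rose by 1.22 ± 0.26 and Tapbp, which bridges the transporter and class I molecules, by 0.87 ± 0.19. In TERT KO/KO the median of these 8 genes was 0.72 and none passed the edgeR test.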

How the data were processed

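Total RNA of whole kidneys was sequenced, 1 library a sample. The submitters' processing notes name FastQC, Trimmomatic, STAR, mm10 and DESeq2; the counting tool, annotation release and strand setting are not given in the sources used here. The authors deposited raw read counts per gene for each library, without normalisation. Gene symbols came from GENCODE M21, where 55144 of 55471 identifiers matched. Samples were grouped by their labels. Nothing says that libraries of a group came from separate litters or days, so p-values measure the spread between these samples.

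Counts were tested with edgeR 4.0.16 (R 4.3.3; TMM, filterByExpr with a minimum count of 10, robust quasi-likelihood F test, Benjamini-Hochberg over all genes tested, called at an adjusted p under 0.05). The injury experiment was fitted on 12 libraries, the induction experiment on 7, and comparisons across both on 19. The SE is the absolute log2 fold change divided by the square root of F. DESeq2 1.42.0, RLE scaling, other filters, a replicate block, the library left out and each library in turn were alternatives. The steps were tested on simulated data.

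The members and lists were chosen with earlier results of these data known. Members were named with values in every library if among the 3 of their role group with the smallest p for ADR in TERT WT/WT, or the 2 with the smallest p in another comparison with a call. Further pathway genes and markers came from fixed lists. A gene of the pathway list is not reported here.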

Additional observations from a re-analysis of the deposited data

Results flagged for a closer look

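Irf9 in actin-rtTA+ replicate 1 was at 23.2 CPM, below the other 3 libraries of that group at 28.3 to 28.9 CPM. The gap to its nearest neighbour was 0.895 of the group's range, above Dixon's critical value at the 95% level. Of 72 member and group pairs of 4 libraries that were examined this was the only one, and chance passes about 1 in 20.

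In replicate 2 of TERT KO/KO ADR, the library left out of the comparisons, 30 of 36 members were above all 3 TERT KO/KO saline libraries, 5 were below and 1 was within their range. Kidney epithelial markers were nearly absent there and Alb took 26.1% of the counts. The share of all genes outside that range was not counted, and the CPM values are not on a like footing. The 30 members therefore cannot be read as a response to ADR.

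Rsad2 had fold changes of opposite sign after ADR in the 2 genotypes. Every TERT WT/WT ADR library lay above and both TERT KO/KO ADR libraries below their saline groups. The TERT WT/WT fold change was not called (0.16 ± 0.13, edgeR adjusted p = 0.353). The difference of -0.86 between the genotypes had an edgeR unadjusted p of 0.000925 and an adjusted p of 0.265, and DESeq2 called it.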

How the results depend on the processing

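Among members called after ADR in TERT WT/WT, the count of 25 became 14 with no filter on low counts and 3 with TERT KO/KO ADR replicate 2 kept, and lay between 6 and 32 when single libraries were left out. In TERT KO/KO the count of 2 became 1 with no filter, with the replicate block and with replicate 2 kept, 6 with DESeq2, and 0 to 10 with single libraries left out. The counts of 0 stayed at 0 for the genotypes after saline and the difference between experiments, lay between 0 and 2 for the genotypes after ADR, between 0 and 1 for the interaction (1 by DESeq2) and between 0 and 26 for i-TERTci (13 by DESeq2). The controls gave 7 by DESeq2 and 2 to 7 with single libraries left out, against 4.

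Some TERT KO/KO fold changes turned sign: Herc6 was -0.005 with RLE and with DESeq2 and -0.053 with the block, Ifit3 was 0.015 with the block, and Usp18 was 1.65 with replicate 2 kept. Leaving out single libraries, they ran from -0.283 to 0.918 for B2m, -0.081 to 0.89 for Bst2, -1.429 to 0.463 for Gbp3, -0.057 to 1.386 for Gbp7, -0.909 to 0.544 for Herc6, -0.379 to 0.24 for Ifit3, -0.318 to 0.873 for Irf7, -0.462 to 1.214 for Isg15, -0.876 to 0.716 for Mx2, -0.772 to 1.128 for Oas2, -0.171 to 2.363 for Oas3, -0.039 to 1.601 for Oasl1, -0.037 to 1.83 for Tap1 and -1.039 to 0.293 for Usp18, and in TERT WT/WT from -0.057 to 0.215 for Gbp3. The causes were not tested.

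The labels do not say that replicate numbers pair libraries of different groups. Over 13 same-numbered pairs the correlations of deviations from the group mean ran from -0.441 to 0.477, with 3 over 0.1. The highest were between TERT WT/WT ADR and TERT KO/KO ADR, 0.477 for replicate 1 and 0.355 for replicate 3. The deviations of the 2 TERT KO/KO ADR libraries mirror each other, so these correlations cannot decide whether libraries were paired. A replicate block gave 20 members called in TERT WT/WT after ADR. TERT KO/KO ADR rests on 2 libraries with unlike member medians. Depth limits what can be said of the ligands, at 0 to 6 counts a library.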
